A study of Mus musculus with 9 samples.

Results

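The 10 genes described here encode effectors of the integrated stress response: the transcription factors Atf4, Atf5, Ddit3 and Cebpb, the kinase gene Eif2ak3, and the targets Trib3, Asns, Chac1, Ddit4 and Sesn2. They were chosen by symbol. All probe sets annotated to these symbols alone were taken, which gave 19 of the 45101 probe sets on the array and 10 of the 18193 genes with a probe set. Of the 19, 16 were bright enough to be tested, at least 1 for each of the 10 genes, and 3 dim probe sets (1 for Atf4 and 2 for Eif2ak3) were not.

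Expression was measured on 9 Affymetrix Mouse430_2 arrays of cultured preSC, which are preneoplastic neuroendocrine cells of the lung. The groups were preSC transduced with retro-L-Myc virus (L-Myc, 2 arrays), with retro-C-Myc virus (C-Myc, 2 arrays) or with retro-N-Myc virus (N-Myc, 2 arrays), and preSC with no virus named (3 arrays). All 9 shared the Rb/p53/p130 genotype, from conditional mice given Adeno-Cre virus, and a mixed C57BL/6 and 129/Sv background, so the untransduced cells carried the same gene losses. The labels gave no age, no empty-vector control, no clone or mouse of origin for an array and no statement that replicates were separate cultures, so p-values measure the spread between these samples, which may be technical. The L-Myc cells were described as having undergone transformation. The molecule was labelled polyA RNA for L-Myc and preSC and total RNA for C-Myc and N-Myc, although the extraction text named total RNA throughout.

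The integrated stress response begins when a stress-sensing kinase phosphorylates the initiation factor eIF2. PERK, the product of Eif2ak3, senses unfolded proteins in the endoplasmic reticulum (ER), GCN2 senses amino acid shortage, PKR double-stranded RNA and HRI heme shortage. General translation then falls while mRNAs with upstream open reading frames, among them Atf4, Atf5 and Ddit3, are translated more, so an mRNA level does not show the amount of these proteins. ATF4 and its partners raise transcription of genes for amino acid supply, redox balance and, when stress persists, cell death. Myc proteins are transcription factors that raise ribosome production and protein synthesis.

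The arrays differed in ways that bear on every comparison below. The viral gene was examined first. Myc read 11.22 and 10.68 (log2) on the C-Myc arrays, and also 11.96 and 11.40 on the N-Myc arrays, against 6.50, 6.82 and 8.13 on the preSC arrays, so Myc did not separate C-Myc from N-Myc. The second-brightest Mycl probe set read 11.79 and 12.74 on the L-Myc arrays, between 6.68 and 8.52 on the C-Myc and N-Myc arrays, and 5.74, 5.61 and 5.39 on the preSC arrays. The brightest Mycn probe set was high in all transduced groups, at 12.92 and 13.33 with L-Myc, 13.54 and 13.08 with C-Myc and 11.64 and 11.07 with N-Myc, against 6.89, 6.79 and 6.37 in preSC. Only the third Mycn probe set stood out in N-Myc, at 9.05 and 8.46, against 5.79 to 6.39 on every other array. Group names are therefore those of the labels. Over all probe sets, the array C-Myc 2 was closest to L-Myc 2 (r = 0.996) and C-Myc 1 to N-Myc 2 (r = 0.994), while C-Myc 1 and C-Myc 2 correlated at 0.970. The preSC arrays also stood apart in control probe sets. The mean 18S ribosomal RNA signal was 8.22 to 9.35 on transduced arrays and 12.88 to 13.91 on preSC arrays. The 5′ minus 3′ difference of the Dap spike-in was -1.68 to -1.51 on transduced arrays and -3.66 to -3.40 on preSC arrays, and that of Actb was -0.31 to -0.20 and -0.85 to -0.62. This split coincides with transduction, so in a comparison with preSC the split and the virus cannot be told apart. All 7 neuroendocrine markers with a probe set were above the 40th percentile on every array. Their summed level spanned 13.60 to 13.84 in transduced cells and 13.78 to 13.85 in preSC, but single markers ran in opposite directions. Scg2 read 9.21 to 10.70 and Chga 9.43 to 10.21 on transduced arrays, against 11.66 to 12.07 and 10.86 to 11.33 on preSC arrays. Uchl1 read 12.41 to 12.82 and Syp 8.68 to 9.04 on transduced arrays, against 11.09 to 11.61 and 7.39 to 7.91 on preSC arrays. Of the markers of other cells, 4 of 7 fibroblast, 3 of 6 leukocyte, 3 of 4 endothelial and 2 of 5 airway and alveolar genes were below that percentile on every array. The summed level of the airway and alveolar markers was 8.15 to 8.72 with L-Myc, 8.05 to 10.83 with C-Myc and 10.76 to 11.22 with N-Myc, against 7.96 to 9.03 in preSC, and its part in the N-Myc results was not tested. This sum followed Sftpc alone, at 10.59 and 11.10 with N-Myc and 10.68 on C-Myc 1, against 6.06 to 8.42 on the other arrays. Sftpb stayed at 6.52 to 6.87 and Foxj1 at 5.27 to 5.60 on all 9 arrays. The summed level of the fibroblast markers was 8.18 to 10.49 with L-Myc, 7.82 to 9.95 with C-Myc and 7.87 to 7.94 with N-Myc, against 8.37 to 9.63 in preSC. That of the leukocyte markers was 7.98 to 11.10, 8.09 to 12.36 and 10.06 to 10.23, against 7.60 to 10.27 in preSC. The leukocyte sum followed Lyz2 alone. On all 9 arrays Cd3e stayed at 6.03 to 6.70, and Ptprc, Cd68, Cd79a and Aif1 at 3.55 to 5.31. The fibroblast sum was highest on the arrays with the highest Dcn. The arrays L-Myc 2, C-Myc 2 and preSC 3 stood apart together. Dcn, from the fibroblast list, read 10.32, 9.69 and 9.32 on these 3, against 5.29 to 6.86 on the other 6. Lyz2, from the leukocyte list, read 6.44, 6.76 and 5.61 on them, against 9.31 to 12.31 on the others. Sftpc and Thy1 were also lowest on them. The defining markers Col1a1, Col1a2, Col3a1 and Ptprc stayed between 3.52 and 5.18 on all 9 arrays. In such bulk RNA, fewer cells of a type and less RNA per cell cannot be told apart.

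The 10 genes did not move as a group. Asns was higher and Eif2ak3 lower than in preSC in all 3 transduced groups, and these were the only members that passed in every group. Ddit3 and Ddit4 were lower in L-Myc, Atf4 was higher and Sesn2 lower in N-Myc, and Atf5, Cebpb, Chac1 and Trib3 passed in no comparison of all 9 arrays. All these calls were on brightest probe sets. The second probe sets of Asns, Ddit3, Atf4 and Sesn2 did not pass, and those of Atf4 and Sesn2 had the opposite sign. In L-Myc, 1 member probe set was higher and 3 were lower of 16 tested, beside 22% of all 29160 probe sets tested (11.6% higher and 10.4% lower). In C-Myc, 1 was higher and 1 lower, beside 29.7% of all (15.1% and 14.6%). In N-Myc, 2 were higher and 2 lower, beside 34.7% of all (17.3% each way). The share of members that passed was thus near or below the share of all probe sets. Without L-Myc 2, C-Myc 2 and preSC 3 together, a setting chosen after seeing the data, the number of member probe sets that passed was 6 with L-Myc, 6 with C-Myc and 9 with N-Myc, beside 10624, 14915 and 16648 of all 29160. That fit has 1 L-Myc and 1 C-Myc array, assumed to vary like the 2 N-Myc and 2 preSC arrays left. In it Ddit3 and Trib3 were lower in all 3 groups, Atf5 and the brightest Cebpb probe set were lower in C-Myc and N-Myc, and Chac1 was lower in L-Myc. Eif2ak3 (-0.35, limma adjusted p = 0.127) and Asns (0.41, 0.0778) did not pass in L-Myc there, while Sesn2 did (-0.54, 0.0373). The arrays of 10, 8 and 9 member probe sets did not overlap preSC with L-Myc, with C-Myc and with N-Myc, beside 53.8%, 55.1% and 67.6% of all. On the brightest probe set of each gene, the median difference of the 10 members was -0.36 in L-Myc, -0.38 in C-Myc and -0.31 in N-Myc, beside -0.04, -0.05 and -0.03 over all 12982 genes tested. The 3 comparisons share the preSC arrays. A probe set passed when its Benjamini-Hochberg adjusted p from limma was under 0.05, and every difference is a transduced mean minus the preSC mean on the log2 scale with its SE.

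**Figure D1:**
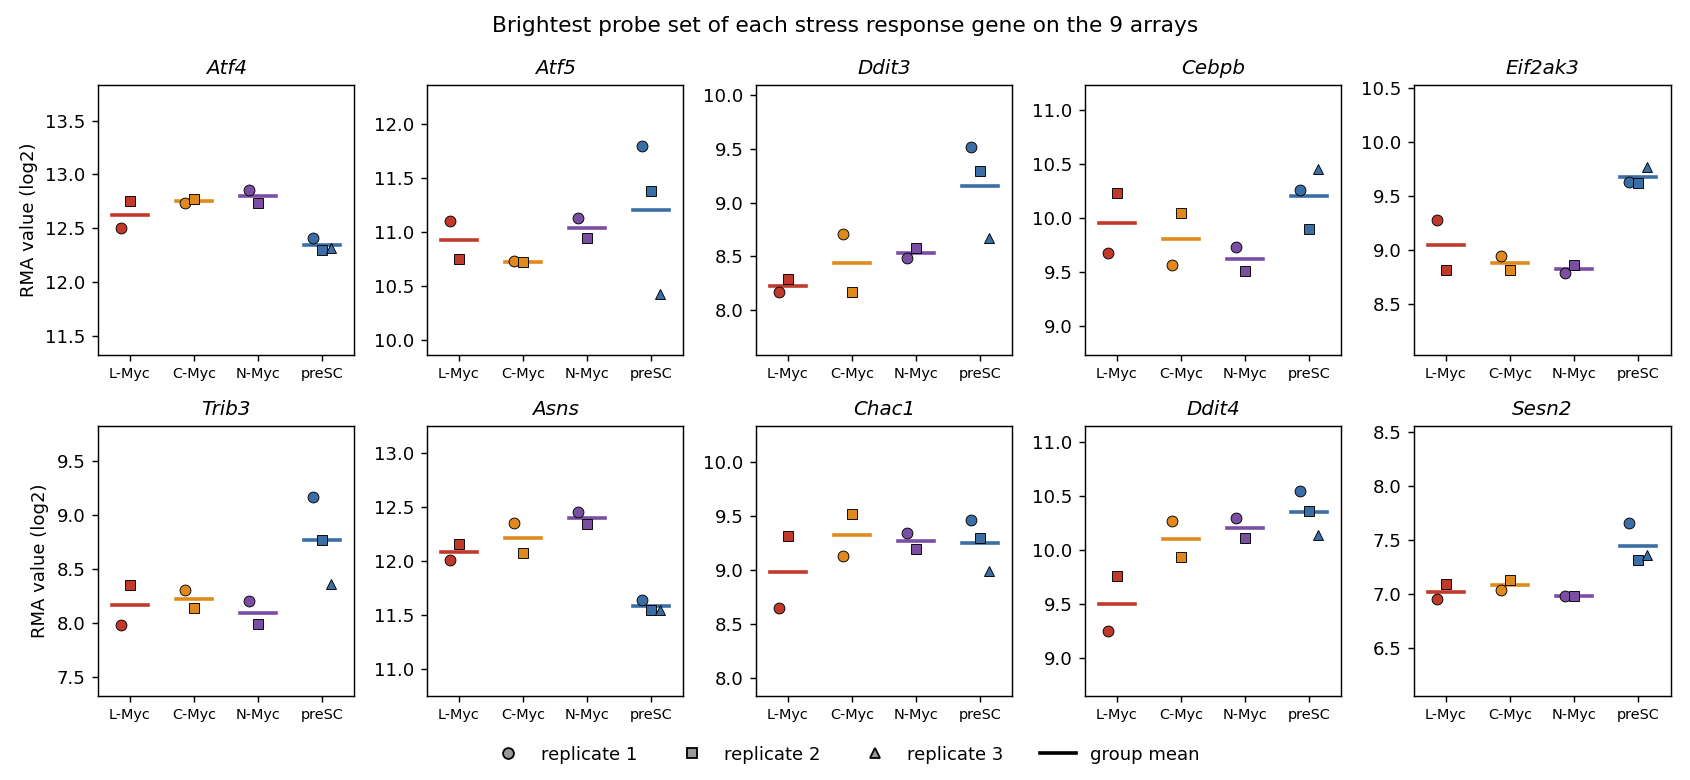
Deposited RMA value (log2) of the brightest probe set of each of the 10 genes on every array, with a point per array and a line at the group mean; every panel spans the same log2 range. The 6 transduced arrays sit above all preSC arrays for Asns and Atf4 and below them for Eif2ak3, Trib3 and Sesn2, while Atf5, Cebpb and Chac1 overlap.

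Eif2ak3, the gene for PERK, was lower after transduction with each of the 3 viruses. It read 9.28 and 8.81 on the L-Myc arrays, 8.94 and 8.81 on the C-Myc arrays and 8.79 and 8.86 on the N-Myc arrays, against 9.63, 9.62 and 9.77 on the preSC arrays. No transduced array reached the lowest preSC array. The difference was -0.63 ± 0.16 in L-Myc (limma adjusted p = 0.0314), -0.80 ± 0.16 in C-Myc (0.0107) and -0.85 ± 0.16 in N-Myc (0.00725), or 0.647, 0.576 and 0.554 of the preSC level. In C-Myc the call held when any single array was left out (-0.86 to -0.73). In N-Myc it was lost only without N-Myc 1 (adjusted p = 0.0608). In L-Myc it was lost without any 1 of the preSC or N-Myc arrays or without L-Myc 2. With each array left out in turn, the Eif2ak3 difference in L-Myc spanned -0.86 to -0.39. Its other 2 probe sets stayed at 3.64 to 5.02 on all 9 arrays and were not tested.

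The other kinases and the phosphatase arm gave a mixed picture. Of 8 listed genes for eIF2 kinases, their regulators and eIF2 dephosphorylation, 2 were higher and 1 lower in each group, beside 16.9%, 25.8% and 30.8% of all genes with L-Myc, with C-Myc and with N-Myc. The L-Myc count of 3 was 1 without preSC 2, L-Myc 1 or L-Myc 2. Ppp1r15a encodes GADD34, the stress-induced subunit that directs phosphatase to eIF2 and closes the response. It read 9.22 and 9.39 with L-Myc, 9.55 and 9.14 with C-Myc and 9.49 and 9.41 with N-Myc, against 8.36, 7.94 and 8.14 in preSC. Its single probe set was higher by 1.16 (limma adjusted p = 0.00479), 1.20 (0.00332) and 1.30 (0.00228). Eif2ak1, the gene for HRI, was higher by 0.87, 1.22 and 1.20 on its brightest probe set (limma adjusted p = 0.0206, 0.00465 and 0.00448), and the third probe set rose as well, while the second did not pass. Eif2ak2, the gene for PKR, was lower on its brightest probe set in L-Myc (-0.48, limma adjusted p = 0.0338) and C-Myc (-0.50, 0.0229), while its second was higher in L-Myc (0.46, 0.0486) and N-Myc (0.53, 0.0216). Nck1, an adaptor reported to bring phosphatase to eIF2, was lower in N-Myc on its brightest probe set (-0.95, limma adjusted p = 0.0193), while its second was higher in L-Myc (1.28, 0.00981) and C-Myc (1.04, 0.0164).

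Genes for eIF2 and for its exchange factor eIF2B, which reloads eIF2 with GTP, were listed with Eif2a and Eif5, which encode other initiation factors. The genes of this list were higher where they passed. Eif5 was among them in C-Myc (0.53, limma adjusted p = 0.0317) and N-Myc (0.57, 0.0212). Eif2s1, the gene for eIF2 alpha, was not among the genes tested. Of 9 tested, 2 rose in L-Myc, 6 in C-Myc and 7 in N-Myc, and none fell; 6.82%, 10.7% and 13.2% of all genes were higher in these comparisons. The list's median difference was 0.47, 0.68 and 0.67. Eif2b3, the gene for eIF2B gamma, was higher by 0.98, 1.01 and 0.67 (limma adjusted p = 0.00938, 0.00656 and 0.0258). Eif2s3x, the gene for eIF2 gamma, was higher by 0.88, 0.90 and 0.92 on its brightest probe set, but by 4.26, 4.34 and 4.20 on the third, so its probe sets gave very different sizes. The counts rested on single arrays: the N-Myc count was 1 without N-Myc 1 or N-Myc 2, the C-Myc count 2 without preSC 1, preSC 2 or C-Myc 1, and the L-Myc count 1 without L-Myc 2.

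Atf4, the central transcription factor of the response, had opposite signs on its 2 tested probe sets. The brightest read 12.50 and 12.75 on the L-Myc arrays, 12.74 and 12.77 on the C-Myc arrays and 12.86 and 12.74 on the N-Myc arrays, against 12.41, 12.30 and 12.32 on the preSC arrays. Every transduced array was above every preSC array. It was higher in N-Myc by 0.46 ± 0.13 (limma adjusted p = 0.0311), and the differences of 0.28 ± 0.13 in L-Myc (0.17) and 0.41 ± 0.13 in C-Myc (0.0507) did not pass. The second probe set read 10.59 and 10.80 with L-Myc, 10.57 and 10.79 with C-Myc and 10.61 and 10.67 with N-Myc, against 11.06, 10.89 and 10.94 in preSC. On it every transduced array was below every preSC array, and the differences of -0.27, -0.28 and -0.33 did not pass. The call of the brightest probe set in N-Myc was lost without any 1 of the 5 preSC and N-Myc arrays (adjusted p up to 0.179). It was also lost after quantile normalization (0.0543). The C-Myc difference passed with no filter on dim probe sets (0.0458), a stricter filter (0.0467), centred arrays (0.0399) and a variance trend (0.0182).

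Ddit3 encodes CHOP, a factor induced by ATF4 that is tied to cell death under lasting ER stress. Its brightest probe set read 8.17 and 8.29 on the L-Myc arrays, 8.71 and 8.17 on the C-Myc arrays and 8.49 and 8.58 on the N-Myc arrays, against 9.51, 9.29 and 8.67 on the preSC arrays. Only C-Myc overlapped preSC, through C-Myc 1 and preSC 3. It was lower in L-Myc by -0.93 ± 0.27 (limma adjusted p = 0.0434), or 0.526 of the preSC level, and the differences of -0.72 in C-Myc (0.0781) and -0.62 in N-Myc (0.106) did not pass. The L-Myc call was lost without preSC 1, preSC 2 or any 1 of the L-Myc and N-Myc arrays (adjusted p up to 0.154), and with no filter on dim probe sets (0.0514). Without preSC 3 it was lower in all 3 groups, by -1.17 in L-Myc, -0.97 in C-Myc (0.0186) and -0.87 in N-Myc (0.0231). The second probe set had the same sign, at -0.42, -0.29 and -0.19, and did not pass.

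Atf5, a factor under the same translational control as Atf4, varied most of the 10 among the untransduced arrays. It read 11.10 and 10.75 with L-Myc, 10.73 and 10.72 with C-Myc and 11.13 and 10.95 with N-Myc, against 11.80, 11.38 and 10.43 in preSC. All transduced arrays lay within the preSC range. The differences of -0.28 ± 0.36, -0.47 ± 0.36 and -0.16 ± 0.36 did not pass with all 9 arrays. Without preSC 3 C-Myc passed (-0.86, limma adjusted p = 0.0242), while L-Myc (-0.67, 0.0666) and N-Myc (-0.55, 0.0811) did not. Without L-Myc 2, C-Myc 2 and preSC 3 together, C-Myc (-0.86, 0.00275) and N-Myc (-0.55, 0.0105) passed. In L-Myc and N-Myc the difference was 0.02 and 0.13 without preSC 1.

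Cebpb, a bZIP factor that pairs with ATF4 on its target genes, again had opposite signs on its 2 probe sets. The brightest averaged 9.95 ± 0.39 in L-Myc, 9.81 ± 0.34 in C-Myc and 9.62 ± 0.15 in N-Myc (SD, n = 2 each), against 10.21 ± 0.28 in preSC (SD, n = 3). The second averaged 8.65 ± 0.35 in L-Myc, 8.46 ± 0.40 in C-Myc and 8.23 ± 0.32 in N-Myc, against readings of 8.06, 7.75 and 8.20 in preSC. The differences were -0.25, -0.40 and -0.59 on the brightest and 0.64, 0.45 and 0.23 on the second, and none passed. Of 10 related bZIP and partner genes, none rose and 2 fell in L-Myc, 1 rose and 3 fell in C-Myc, and 2 rose and 1 fell in N-Myc. Of all genes, 16.9%, 25.8% and 30.8% passed in these comparisons. Atf3, a stress-induced repressor downstream of ATF4, was higher in C-Myc (0.84, limma adjusted p = 0.0174) and N-Myc (0.82, 0.0165), and its 0.63 in L-Myc did not pass (0.058). Cebpd was lower in L-Myc (-1.58, 0.0343) and C-Myc (-1.41, 0.0404), with L-Myc arrays far apart at 5.63 and 7.21. Cebpa was higher in N-Myc (1.86, 0.0404). Nfe2l2, the gene for the antioxidant factor NRF2, was lower on its brightest probe set by -1.47 in L-Myc (0.00631) and -0.99 in C-Myc (0.0213), while its second was higher by 1.08 (0.0179), 1.33 (0.0067) and 1.45 (0.00435) in the 3 groups. The N-Myc count of this list was 0 without N-Myc 1 or N-Myc 2, and the C-Myc count 1 without preSC 1, preSC 2 or C-Myc 1. The L-Myc count was 1 without preSC 1, preSC 2 or any 1 of L-Myc 1, N-Myc 1 and N-Myc 2.

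Asns, asparagine synthetase, makes asparagine from aspartate and glutamine and is a direct ATF4 target. Its brightest probe set read 12.01 and 12.16 on the L-Myc arrays, 12.35 and 12.07 on the C-Myc arrays and 12.45 and 12.34 on the N-Myc arrays, against 11.64, 11.55 and 11.55 on the preSC arrays. Every transduced array was above every preSC array. It was higher by 0.50 ± 0.14 in L-Myc (limma adjusted p = 0.0382), 0.63 ± 0.14 in C-Myc (0.0133) and 0.81 ± 0.14 in N-Myc (0.00475), or 1.42-, 1.55- and 1.76-fold. In N-Myc the call held when any single array was left out (0.75 to 0.87), and in C-Myc it was lost only without C-Myc 1 (0.49, 0.0641). In L-Myc the call held only without C-Myc 1 or C-Myc 2 and was lost without any 1 of the other arrays (0.43 to 0.57, adjusted p up to 0.183) and after quantile normalization (0.0616). The second probe set read 11.49 and 11.99 with L-Myc, 12.06 and 11.84 with C-Myc and 12.10 and 12.09 with N-Myc, against 11.71, 11.68 and 11.62 in preSC. Its differences of 0.07, 0.28 and 0.43 had the same sign, were smaller and did not pass.

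Other genes for amino acid synthesis moved the same way as Asns where they passed, with 1 exception in N-Myc. Of 10 tested, 3 rose in L-Myc and 4 in C-Myc with none lower, and 2 rose and 1 fell in N-Myc. Of all genes, 6.82%, 10.7% and 13.2% were higher and 10.1%, 15.1% and 17.5% lower, so the N-Myc count is near the background. The median difference was 0.70, 0.67 and 0.49. Phgdh, which opens serine synthesis, was higher by 1.10, 1.40 and 1.55 on its brightest probe set (limma adjusted p = 0.0178, 0.00579 and 0.0036), and its other 3 probe sets passed in the same direction. Psat1, the next enzyme of that path, was higher in L-Myc (1.15, 0.00916) and C-Myc (0.98, 0.0133) on its brightest probe set. Its second passed in no group, at 0.70, 0.55 and 0.08. Shmt2, the mitochondrial enzyme that turns serine into glycine, was higher in C-Myc (1.17, 0.0254) and N-Myc (1.52, 0.00876) on its brightest probe set. Its second was higher in L-Myc too (1.63, 0.00866), and in C-Myc (2, 0.00322) and N-Myc (2.26, 0.00193). The third passed in the same groups as the brightest, and the fourth in none. Cth, which makes cysteine from cystathionine, was higher in L-Myc (1.43, 0.0237) and C-Myc (2.34, 0.00303), and both counts include it. However, Cth was dim, at 4.31, 3.62 and 4.51 in preSC and 5.07 and 5.26 with N-Myc. It read 5.13 and 6.03 with L-Myc and 6.76 and 6.23 with C-Myc. Cth thus passed the filter on dim probe sets (5.28 to 5.34) only through L-Myc 2 and the C-Myc arrays. With preSC below that level, the size of its differences is uncertain. Without N-Myc 1 the N-Myc count was 1, and without preSC 2 or L-Myc 2 the L-Myc count was 1.

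Of 13 genes for tRNA synthetases and tRNA export that the response is reported to induce, 6 rose in L-Myc, 5 in C-Myc and 5 in N-Myc, and none fell, beside 6.82%, 10.7% and 13.2% of all genes that were higher. The median difference was 0.33, 0.49 and 0.51. Sars, the seryl enzyme, was higher by 0.92, 0.91 and 0.95 (limma adjusted p = 0.0111, 0.00904 and 0.00693) and on its second probe set too. Cars, the cysteinyl enzyme, was higher by 0.87, 0.79 and 0.71 on its brightest probe set (0.00633, 0.0074 and 0.00976), while its second did not pass. Gars, the glycyl enzyme, was higher by 0.55, 0.65 and 0.82 (0.0358, 0.0148 and 0.00573). Wars, the tryptophanyl enzyme, was higher in N-Myc only by 0.83 on its brightest probe set (0.015), though the second and the fourth passed in all 3 groups. The counts were 2 without L-Myc 2 in L-Myc, 2 without C-Myc 1 in C-Myc and 1 without N-Myc 1 in N-Myc, and 10 in N-Myc with centred arrays.

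No amino acid transporter passed as higher on its brightest probe set in the fit of all 9 arrays. Of 10 tested, 3 fell in L-Myc, 3 in C-Myc and 2 in N-Myc, beside 10.1%, 15.1% and 17.5% of all genes that were lower, so the N-Myc count is near the background. Without L-Myc 2, C-Myc 2 and preSC 3 together, 1 rose and 5 fell in L-Myc, 4 rose and 3 fell in C-Myc, and 2 rose and 4 fell in N-Myc. Slc38a2, a sodium-coupled carrier of neutral amino acids that ATF4 induces, was lower by -0.51, -0.47 and -0.44 (limma adjusted p = 0.0411, 0.0443 and 0.0496). Slc1a4 was lower by -0.89, -0.86 and -0.96 on its brightest probe set, while its second was higher by 1.78, 1.76 and 1.71, and both passed in every group. The third was also higher in L-Myc (1, 0.0348) and N-Myc (0.95, 0.0301), and its 0.82 in C-Myc did not pass (0.0544). Slc1a4 is thus counted as lower on its brightest probe set alone. Slc38a1 was lower in L-Myc (-0.65, 0.0118) and C-Myc (-0.57, 0.0151), while its second probe set was higher in N-Myc (0.74, 0.017). The L-Myc count was 0 without L-Myc 1 or L-Myc 2, the C-Myc count 1 without preSC 1, preSC 2 or C-Myc 2, and the N-Myc count 0 without N-Myc 1 or N-Myc 2.

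Trib3, a pseudokinase induced by ATF4 and CHOP that restrains ATF4 in turn, passed in no comparison. Its brightest probe set read 7.98 and 8.35 on the L-Myc arrays, 8.31 and 8.14 on the C-Myc arrays and 8.20 and 7.99 on the N-Myc arrays, against 9.17, 8.77 and 8.36 on the preSC arrays. All transduced arrays were below all preSC arrays, with L-Myc 2 and preSC 3 nearly level. The differences were -0.60 ± 0.24, -0.54 ± 0.24 and -0.67 ± 0.24 (limma adjusted p = 0.118, 0.133 and 0.0671). Without preSC 3 they passed in all 3 groups, at -0.81 (0.0427), -0.74 (0.0428) and -0.87 (0.024). On the second probe set the differences were -0.02, 0.16 and -0.07.

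Chac1, an enzyme that breaks down glutathione and is induced through ATF4, did not pass in any group. It read 8.64 and 9.31 with L-Myc, 9.13 and 9.52 with C-Myc and 9.34 and 9.19 with N-Myc, against 9.46, 9.29 and 8.99 in preSC. The groups overlapped, and L-Myc alone spanned most of the full range. The differences were -0.27, 0.08 and 0.02, each with an SE of 0.24.

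Ddit4, which encodes REDD1, and Sesn2, which encodes Sestrin 2, restrain the growth kinase complex mTORC1 under stress. Ddit4 read 9.25 and 9.76 on the L-Myc arrays, 10.27 and 9.94 on the C-Myc arrays and 10.30 and 10.11 on the N-Myc arrays, against 10.55, 10.36 and 10.14 on the preSC arrays. The 2 L-Myc arrays were the lowest of the 9. Ddit4 was lower in L-Myc by -0.84 ± 0.21 (limma adjusted p = 0.026), or 0.558 of the preSC level, while -0.24 in C-Myc and -0.14 in N-Myc did not pass. The L-Myc call was lost without preSC 1, preSC 2 or L-Myc 1. With each array left out in turn, the L-Myc difference spanned -1.10 to -0.58.

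Sesn2 moved in the same direction on its brightest probe set in all groups. It read 6.95 and 7.09 with L-Myc, 7.04 and 7.13 with C-Myc and 6.98 and 6.98 with N-Myc, against 7.66, 7.31 and 7.36 in preSC. It was lower in N-Myc by -0.46 ± 0.15 (limma adjusted p = 0.0434), and -0.43 in L-Myc (0.0766) and -0.36 in C-Myc (0.101) did not pass. The N-Myc call held only without C-Myc 1 or C-Myc 2 and was lost without any 1 of the other arrays (adjusted p up to 0.17), with centred arrays (0.0746) and after quantile normalization (0.0762). The second probe set had the opposite sign, at 0.15, 0.26 and 0.15, and did not pass. Of 9 other genes around mTORC1, 1 rose and 1 fell in L-Myc and C-Myc, and 1 rose in N-Myc, beside 16.9%, 25.8% and 30.8% of all genes that passed. The count was 0 in L-Myc without L-Myc 2 and 0 in C-Myc without preSC 1. Depdc5, a subunit of the GATOR1 complex that Sestrins act on through GATOR2, was higher by 0.84, 0.66 and 1.06 on its brightest probe set (limma adjusted p = 0.00991, 0.0194 and 0.00303). Its other 3 tested probe sets did not pass, at -0.17, 0.27 and -0.41 with L-Myc, -0.26, 0.03 and -0.55 with C-Myc and -0.21, 0.17 and -0.40 with N-Myc. Tsc1, an mTORC1 inhibitor that acts downstream of REDD1, was lower on its brightest probe set in L-Myc (-0.61, 0.0431) and C-Myc (-0.55, 0.0484), while the third was higher there (0.63, 0.0356 and 0.74, 0.0155).

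**Figure D2:**
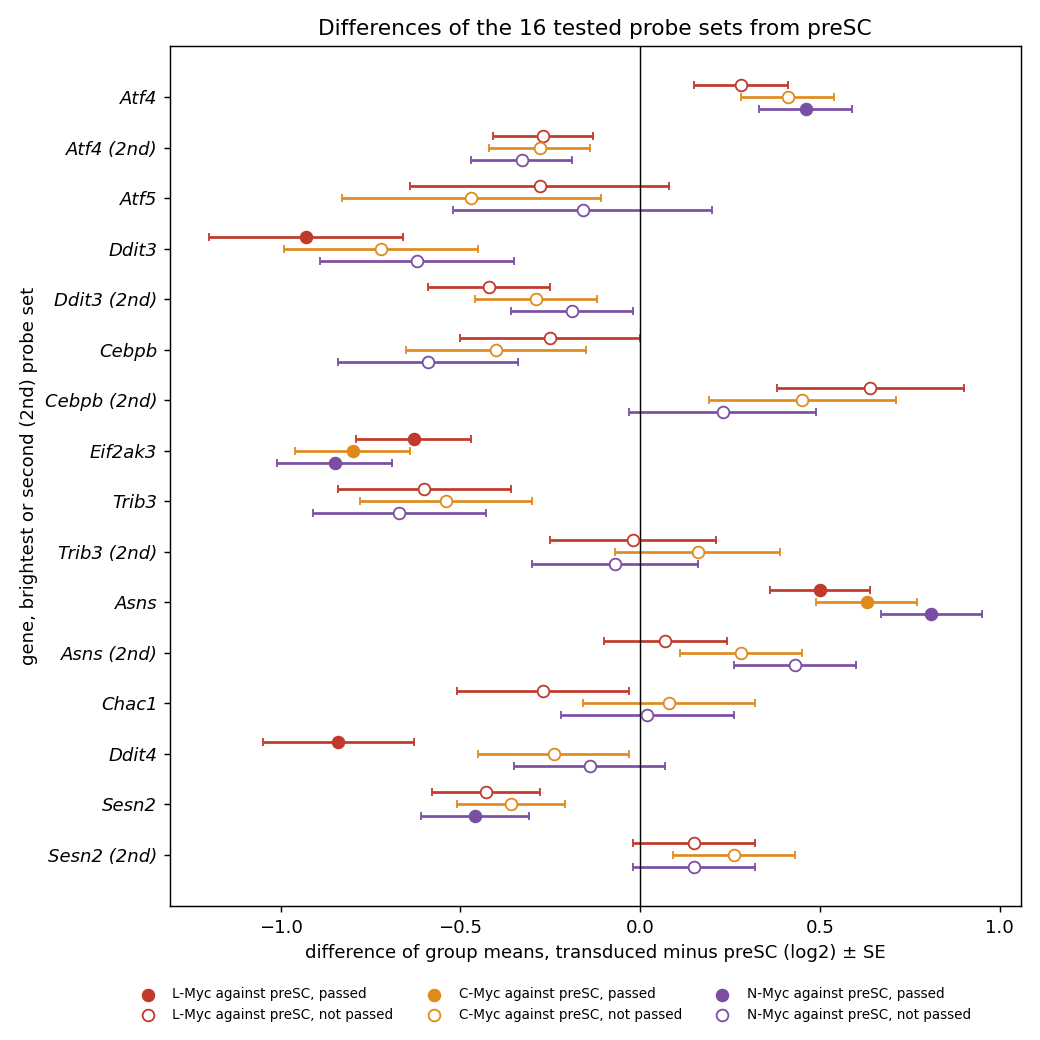
Difference between each transduced group and preSC (log2, horizontal axis) for the 16 tested probe sets, with bars of 1 SE; filled points passed at an adjusted p under 0.05 and open points did not. Filled points in all 3 colours appear for Eif2ak3, to the left of zero, and for the brightest probe set of Asns, to the right.

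Among the transduced groups, no member probe set passed in C-Myc against N-Myc (0.00343% of all probe sets passed), L-Myc against C-Myc (0%) or L-Myc against N-Myc (0%). At an unadjusted limma p under 0.05 there were 0, 1 and 1 of 16. Both were Ddit4, which was lower in L-Myc than in C-Myc by -0.60 ± 0.23 (adjusted p = 0.858) and than in N-Myc by -0.70 ± 0.23 (adjusted p = 0.181). Its L-Myc arrays did not overlap either group. The molecule label also set L-Myc (polyA RNA) apart from C-Myc and N-Myc (total RNA), so label and virus cannot be told apart there. Without overlap were 4 member probe sets in C-Myc against N-Myc, 2 in L-Myc against C-Myc and 4 in L-Myc against N-Myc, beside 33%, 26.4% and 54.8% of all. A lower Ddit4 in L-Myc than in the other transduced groups was therefore not shown by the test of all 9 arrays. Without L-Myc 2, C-Myc 2 and preSC 3 together the Ddit4 difference was -1.02 against C-Myc and -0.96 against N-Myc. That fit has 1 L-Myc and 1 C-Myc array, so it holds no spread within either group and cannot decide the question. Asns differed by -0.13 between L-Myc and C-Myc, -0.31 between L-Myc and N-Myc and -0.18 between C-Myc and N-Myc, and none passed.

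Of the 6 members with 2 tested probe sets, Atf4, Cebpb and Sesn2 had opposite signs in all 3 groups and Trib3 in C-Myc. Asns and Ddit3 had the same sign in every group. Such disagreement was common on these arrays: among 6383 genes with 2 tested probe sets, the brightest and the second had opposite signs in 37.1% in L-Myc, 35.5% in C-Myc and 34.4% in N-Myc. Where both passed, they were opposite in 81 of 506, 139 of 887 and 149 of 1121 genes. Its relation to the 5′ to 3′ differences of the control probe sets was not tested, and probe positions were not used here.

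**Figure D3:**
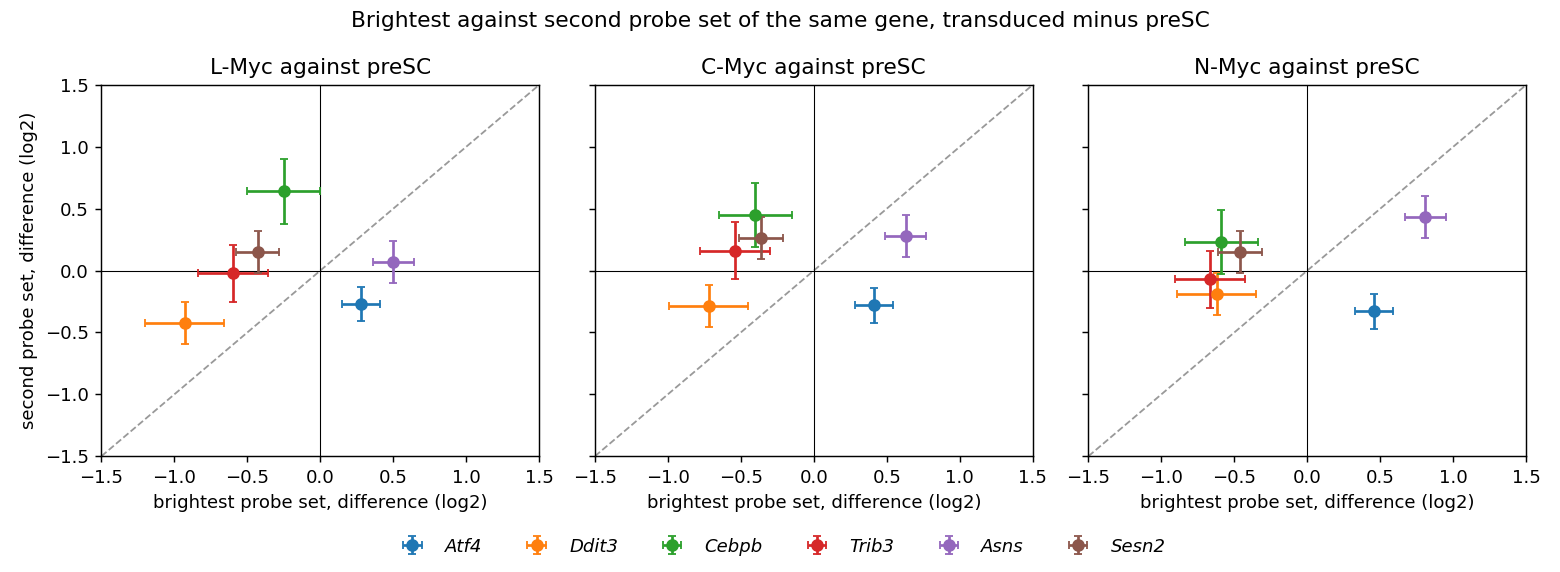
Difference from preSC (log2) on the brightest probe set (horizontal axis) against the second probe set (vertical axis) of the 6 members with 2 tested probe sets, with bars of 1 SE and a dashed line of equality. Asns and Ddit3 lie in the quadrants of equal sign in all 3 panels, and Atf4, Cebpb and Sesn2 in those of opposite sign.

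The C/EBP-ATF element, known from stress-induced genes such as Asns, is where ATF4 pairs with C/EBP factors. Promoter windows from 250 bases before to 50 after the start (RefSeq, GRCm38.p6) were found for all 10 genes, 11 windows in all, and were searched on both strands. The core TGATGNAA occurred in 3 of the 10 genes, Asns, Chac1 and Trib3, and in 3.97% of all 32851 windows. The E-box CACGTG, bound by Myc with Max, occurred in none of the 11 and in 7.15% of all. The ER stress element, by its standard consensus with a gap of any bases, occurred in none and in 0.119% of all. A match describes these letters and shows no binding. The 250 bases before the Asns start are shown because Asns rose in all 3 groups, and 28-base windows of Chac1 and Trib3 because they hold the same core without a call. Each is written 5′ to 3′ on the gene's strand, with the core or its reverse complement in capitals.
Asns, chr6:7693210-7693459, minus strand: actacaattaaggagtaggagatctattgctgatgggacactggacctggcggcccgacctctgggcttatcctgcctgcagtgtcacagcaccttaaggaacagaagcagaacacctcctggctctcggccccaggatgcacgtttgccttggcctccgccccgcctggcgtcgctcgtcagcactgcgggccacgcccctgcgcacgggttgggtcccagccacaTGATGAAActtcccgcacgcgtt
Chac1, chr2:119351039-119351066, plus strand: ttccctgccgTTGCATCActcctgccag
Trib3, chr2:152344029-152344056, minus strand: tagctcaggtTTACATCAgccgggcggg
Counted from the start, the core begins at base -23 in Asns, at -193 in Chac1 and at 15, past the start, in Trib3. These 3 genes differed in outcome: Asns was higher in every group, while Chac1 and Trib3 passed in none. The other genes hold no such letters in these windows. Asns lies at chr6:7675165-7693209, Eif2ak3 at chr6:70844484-70905241, Atf4 at chr15:80255184-80257545 and Ddit3 at chr10:127290793-127296291.

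The ER chaperones and the IRE1 and ATF6 arms, which act beside PERK in the unfolded protein response, fell or did not pass. Of 15 tested, 3 fell in L-Myc, 5 in C-Myc and 9 in N-Myc, and none rose, beside 10.1%, 15.1% and 17.5% of all genes that were lower. The median difference was -0.32, -0.45 and -0.63. Dnajc3, the gene for the PERK inhibitor P58IPK, was lower by -0.93, -1.14 and -1.11 (limma adjusted p = 0.00401, 0.00149 and 0.00159), and the second and the third passed in the same direction. Ern1, the gene for IRE1 alpha, was lower by -1.08, -1.23 and -1.12 on its brightest probe set (0.0217, 0.0109 and 0.0133), and its other 2 tested probe sets did not pass. Xbp1, whose mRNA IRE1 splices, was lower in C-Myc (-0.99, 0.018) and N-Myc (-1.10, 0.0107). Sel1l, of the ER degradation machinery, was lower in C-Myc (-0.74, 0.0309) and N-Myc (-1, 0.0091) on its brightest probe set, while the fifth was higher in all 3 groups (1.34, 1.13 and 0.96). The L-Myc count was 1 without L-Myc 1 or L-Myc 2, the C-Myc count 1 without C-Myc 1 and the N-Myc count 1 without N-Myc 1.

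Of 18 other reported ATF4 or CHOP targets, 1 rose and 3 fell in L-Myc, 4 rose and 4 fell in C-Myc, and 4 rose and 3 fell in N-Myc. Of all genes, 16.9%, 25.8% and 30.8% passed. Stc2, a secreted stress-induced glycoprotein, was higher in C-Myc (1.57, limma adjusted p = 0.0233) and N-Myc (1.83, 0.0117), with C-Myc arrays at 8.04 and 6.42. Eif4ebp1, a translation repressor induced by ATF4, was higher in C-Myc (1.12, 0.0152) and N-Myc (0.84, 0.0381), with its second probe set alike. Gadd45b was lower in L-Myc (-0.98, 0.0152) and C-Myc (-0.67, 0.0464), and on its second probe set in all 3 groups. Bcl2l11, the gene for the death protein BIM and a CHOP target, was lower by -1.36, -1.35 and -0.99 on its brightest probe set. The second was lower in C-Myc (-0.9, 0.0327), the third in L-Myc (-0.98, 0.0405) and C-Myc (-0.96, 0.0344), and the fourth passed in no group. The fifth was higher by 1.13, 1.33 and 1.29, and these and the differences of the brightest were past the threshold. However, the fifth was dim in preSC, at 4.94, 4.82 and 5.17, below the filter on dim probe sets (5.28 to 5.34). The size of its differences is therefore uncertain. The count was 1 in L-Myc without preSC 2, L-Myc 1 or L-Myc 2, 2 in C-Myc without preSC 2 and 0 in N-Myc without N-Myc 2. Of 11 autophagy genes, 1 rose in L-Myc, and 3 rose and 1 fell in both C-Myc and N-Myc, beside the same shares of all genes. Sqstm1, the gene for the cargo receptor p62, was higher by 0.83, 0.68 and 0.74 (limma adjusted p = 0.0208, 0.0337 and 0.022). Atg7 was higher in C-Myc (0.60, 0.03) and N-Myc (0.82, 0.00849), while the third probe set was lower in C-Myc (-0.45, 0.0318). Atg5 was higher in C-Myc (0.54, 0.0409) and N-Myc (0.57, 0.0304). Ulk1, which starts autophagy, was lower in C-Myc (-0.77, 0.0246) and N-Myc (-0.69, 0.0329), while its second probe set was higher in all 3 groups. The autophagy count was 0 in L-Myc without preSC 1, preSC 2 or L-Myc 2, 0 in C-Myc without preSC 1 or preSC 2 and 0 in N-Myc without N-Myc 1.

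**Figure D4:**
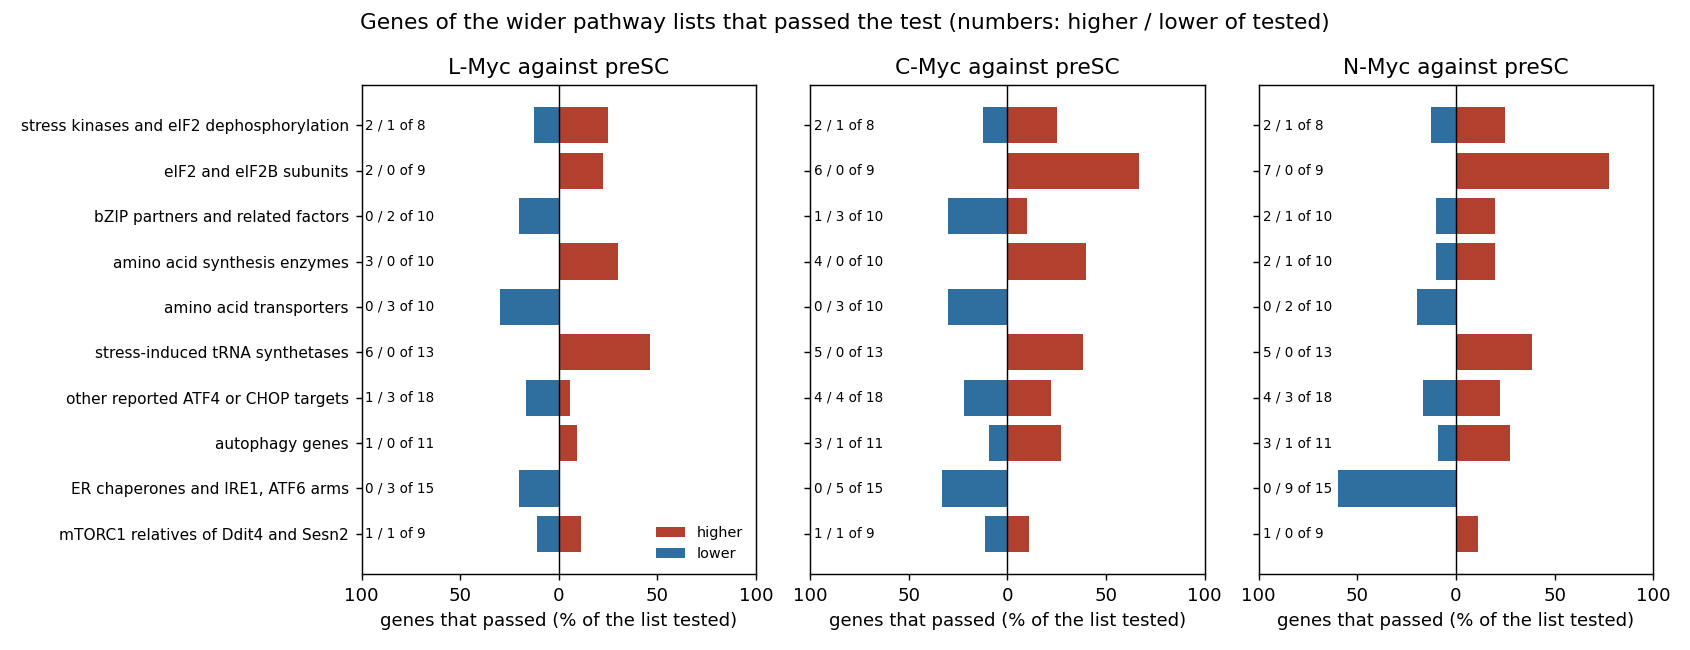
Share of the tested genes of each list (brightest probe set, percent) that were higher (right) or lower (left) than in preSC at an adjusted p under 0.05; the numbers give higher / lower of tested. The eIF2 and eIF2B and the tRNA synthetase bars point right, and the ER chaperone and transporter bars point left, in all 3 panels.

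Over the 9 arrays, the genes whose brightest probe sets ran most like each member were described by Pearson r among 12313 genes, with groups and array differences shared by all. Asns was most like Gsr (r = 0.994) and Pfkl (0.992), and Eif2ak3 most like Acp2 (0.993) and Itgav (0.991). Atf4 was most like Junb (0.978) and Lsm11 (0.977), Sesn2 like Upk3a (0.988) and Tmem81 (0.954), and Cebpb like Plscr3 (0.984) and Znhit2 (0.969). Ddit3 was most like Akap12 (0.975) and Stau2 (0.962), Atf5 like Nsg2 (0.971) and Tmem151b (0.964), and Ddit4 like Jarid2 (0.941) and Mt1 (0.932). Trib3 was most like Ttc13 (0.934) and Adamts18 (0.928), and Chac1 like Slc25a47 (0.886) and Oasl1 (0.88). Among the members, on their brightest probe sets, Atf4 ran with Asns (r = 0.94) and against Eif2ak3 (-0.98). On these probe sets Trib3 ran with Sesn2 (0.91) and Ddit3 (0.90). The second probe sets of Atf4 and Sesn2 differed from preSC in the opposite direction, and r was not computed for second probe sets.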

How the data were processed

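The deposited values are log2 expression values per probe set of 9 Affymetrix Mouse430_2 arrays. Per the submitters' processing notes the authors used RMA in the affy package with R 3.0.1, so background was corrected and arrays were brought to a common distribution, which can spread shifts between arrays over many probe sets. Precision is limited by the number of arrays. Groups were taken from the sample titles. Names came from the platform annotation: 34945 probe sets had 1 symbol, 932 had several and 9160 were unnamed here.

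A probe set was tested if it was above its array's 40th percentile (5.28 to 5.34) on at least 2 of 9 arrays, which left 29160. Group means were fitted to all 9 arrays in limma 3.58.1 under R 4.3.3, using lmFit then eBayes, with 5 residual degrees of freedom, two-sided, with Benjamini-Hochberg adjustment over all probe sets tested and a threshold of 0.05. The script was tested on simulated data. A listed gene was represented by its brightest probe set. From each list the text names up to 4 genes with the largest change past the threshold, and for each member the 2 genes most like it. Eif5 is named besides these. Members and lists were chosen with earlier results of these data known. Listed genes without a probe set were not analysed here. Alternatives changed the filter, centring, normalization, variance trend, arrays fitted, replicate block and probe set. One setting, without L-Myc 2, C-Myc 2 and preSC 3 together, was chosen after seeing the data. Figures were drawn with matplotlib 3.10.9.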

Additional observations from a re-analysis of the deposited data

How the results depend on the processing

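With 2 arrays in each transduced group, single arrays decided many calls. Leaving out each array in turn, the number of member probe sets that passed was 0 to 4 in L-Myc, 1 to 5 in C-Myc and 1 to 4 in N-Myc against preSC. The count over all probe sets was 3350 to 8017 in L-Myc, 5503 to 9148 in C-Myc and 3779 to 11578 in N-Myc. Between transduced groups it was 0 to 852 for C-Myc against N-Myc, 0 to 1180 for L-Myc against C-Myc and 0 to 2462 for L-Myc against N-Myc. Differences that changed sign were small: against preSC in L-Myc Atf5 spanned -0.67 to 0.02, the brightest Cebpb probe set -0.53 to 0.02, the second Trib3 -0.24 to 0.12, the second Asns -0.18 to 0.32 and Chac1 -0.60 to 0.06. In C-Myc the second Trib3 probe set spanned -0.06 to 0.31 and Chac1 -0.12 to 0.27. In N-Myc Atf5 spanned -0.55 to 0.13, the second Cebpb 0 to 0.46, the second Trib3 -0.28 to 0.07 and Chac1 -0.11 to 0.12. Ddit4 spanned -0.26 to 0.06 between C-Myc and N-Myc, and Asns -0.27 to 0.01 between L-Myc and C-Myc. With only the groups compared in the fit, 2 member probe sets passed in L-Myc, 0 probe sets of all passed in C-Myc against N-Myc and 669 in L-Myc against N-Myc. After quantile normalization 2 member probe sets passed in N-Myc. With p-values adjusted over genes, 2 members passed in L-Myc on the brightest probe set. On the second-brightest 0 passed in L-Myc, 0 in C-Myc and 0 in N-Myc, and on the mean of a gene's probe sets 2, 1 and 2. The deviations of arrays numbered 1 from their group means correlated at 0.101 to 0.608, and so did those of the transduced arrays numbered 2 (0.101 to 0.439, their mirror image in groups of 2). However, preSC 2 ran against the arrays numbered 2 (-0.64, -0.353 and -0.000462), and the labels name nothing that a number shares, so the pairing was not taken as shown. With the replicate block, which leaves preSC 3 without weight, 4 member probe sets passed in C-Myc and 0 probe sets of all in C-Myc against N-Myc. With the replicate block Eif2ak3 (adjusted p = 0.0797) and Asns (0.0982) in L-Myc and Atf4 (0.0886) and Sesn2 (0.0788) in N-Myc did not pass. Under it Atf5 passed in L-Myc (-0.67, 0.0437) and C-Myc (-0.86, 0.0172), Ddit3 in C-Myc (-0.97, 0.0222) and N-Myc (-0.87, 0.0268), and Trib3 in N-Myc (-0.87, 0.0302). With the replicate block the second Trib3 probe set was at -0.06 and Chac1 at -0.05 in C-Myc, and Chac1 at -0.11 in N-Myc. Without L-Myc 2, C-Myc 2 and preSC 3 together, chosen after seeing the data, 6 member probe sets passed in C-Myc, 9 in N-Myc, 2 in L-Myc against C-Myc and 3 in L-Myc against N-Myc. Over all probe sets 10624 passed with L-Myc, 14915 with C-Myc and 16648 with N-Myc against preSC, 251 in C-Myc against N-Myc, 7190 in L-Myc against C-Myc and 8261 in L-Myc against N-Myc. There the second Asns probe set was at -0.20 and the second Sesn2 at -0.02 in L-Myc, Chac1 at -0.25 in C-Myc and -0.11 in N-Myc, and Ddit4 at 0.06 between C-Myc and N-Myc. The cause of these changes was not tested, beyond the fewer arrays or other probe sets that define each setting.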
